A study of Boehmeria nivea with 6 samples.

Results

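A total of 109 of the 20693 genes in the table were root-enriched in both varieties of ramie, Boehmeria nivea, a perennial of the nettle family grown for the bast fibres of its stems. A gene was included when its root FPKM was at least 1 and its root value of FPKM + 1 was at least 4 times that of leaf and at least 4 times that of stem, in the cultivar ZSZ1 and also in the wild tenacissima accession QYZM. FPKM give the fragments assigned to a gene corrected for its length and for the size of the library. Root, leaf and stem of 30-day-old plants of both varieties were sequenced, as 6 libraries of 1 per organ and variety, so no group had a replicate. How many plants went into a library was not given, and no treatment was named. The genes were chosen on these same FPKM values, so their excess in root is a description here and carries no test.

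Roots anchor the plant and take up water and mineral ions, which enter through the epidermis and its root hairs and are passed inward to the xylem. The endodermis, sealed by the Casparian strip and by suberin, controls which ions reach the vessels. Gene sets expressed mainly in root commonly hold ion transporters, cell wall proteins and enzymes of specialised metabolism. The files do not pair the ramie identifiers with gene names, so none of these roles could be assigned to any gene below, the label "root-enriched" could not be checked against named root markers, and only a few identifiers are given for each comparison.

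The libraries were close in relative depth. Steps among values below 0.2 FPKM, read as single fragments, placed them at 0.91 to 1.14 times their common mean, and read totals were not known. An exact 0 is given as listed at 0, with no fold against it. The root libraries differed in how many genes of high stem level were nearly missing from them. Of 1307 genes that reached 50 FPKM in each stem library, 114 stood at no more than 10% of their stem level in ZSZ1 root and 20 in QYZM root. No more than 1% remained for 14 of them in ZSZ1 root and for 1 in QYZM root. The median over the 1307 genes was close in both, at 89.2% of the stem level in ZSZ1 root and 87.8% in QYZM root. Whether tissue carried over has a part in any result was not tested.

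The same rule applied to one variety alone gave 471 genes in ZSZ1 and 188 in QYZM, so the 109 shared genes were 23.1% of the ZSZ1 list and 58% of the QYZM list. Of the 362 genes that met it in ZSZ1 alone, 102 still had at least a 2-fold root excess over both other organs in QYZM. Of the 79 genes that met it in QYZM alone, 33 did so in ZSZ1. The boundary had no gap. A total of 29 shared genes lay within 1.2-fold inside the 4-fold threshold and 26 genes lay within 1.2-fold outside it. The nearest inside, Bnt03G004252, had 8.58 times the higher of leaf and stem in ZSZ1 and 4.01 times in QYZM on the FPKM + 1 scale. Bnt05G008547 followed, at 5.61 times in ZSZ1 and 4.03 times in QYZM. The nearest outside, Bnt08G013427, had 3.98 times in ZSZ1 and 6.4 times in QYZM, and Bnt06G009358 had 18.3 times in ZSZ1 and 3.94 times in QYZM.

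Root levels spanned a wide range. In ZSZ1 root the 109 genes had between 3.09 and 4971 FPKM with a median of 20.1, and in QYZM root between 3.47 and 3339 FPKM with a median of 18.2. Their medians outside root were 0.327 FPKM in ZSZ1 leaf, 0.231 in ZSZ1 stem, 0.439 in QYZM leaf and 0.58 in QYZM stem. All tested genes had medians of 5.49 to 10.4 FPKM in the 6 libraries. In whole organs, fewer cells of a type and less RNA per cell cannot be told apart. Of the shared genes, 33 were below 10 FPKM in ZSZ1 root and 36 in QYZM root, 22 of them in both, while 11 reached 100 FPKM in both roots.

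**Figure D1:**
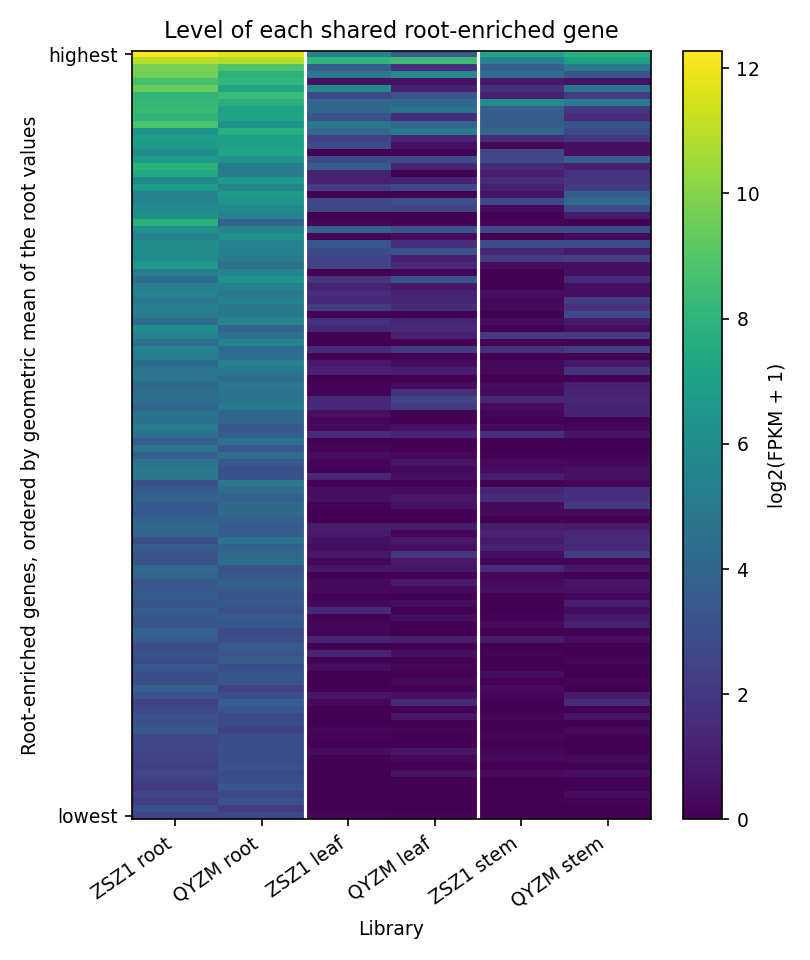
Colour gives log2(FPKM + 1) of each of the 109 shared root-enriched genes (rows, ordered by the geometric mean of the root values) in each of the 6 libraries (columns). Both root columns are brighter than the leaf and stem columns in every row by the rule of choice, and the highest rows keep visible levels in leaf and stem.

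The root signal was concentrated in very few genes. Bnt11G016999 had 4971 FPKM in ZSZ1 root and 3339 FPKM in QYZM root, against 43.8 FPKM in ZSZ1 leaf, 138 FPKM in ZSZ1 stem, 9.85 FPKM in QYZM leaf and 235 FPKM in QYZM stem. It was the highest of all genes in ZSZ1 root and ranked 3 in QYZM root, and in both stems it was also the highest of the shared genes. Bnt11G017037 had 2084 FPKM in ZSZ1 root and 1888 FPKM in QYZM root, against 262 FPKM in ZSZ1 leaf, 43.1 FPKM in ZSZ1 stem, 344 FPKM in QYZM leaf and 122 FPKM in QYZM stem. This gene ranked 4 in ZSZ1 root and 7 in QYZM root, and its leaf levels alone exceeded the root levels of most of the shared genes. These 2 genes held 48.2% of the summed FPKM of the shared genes in ZSZ1 root and 52.5% in QYZM root. All 109 genes held 3.97% of the summed FPKM of ZSZ1 root and 2.58% of QYZM root, and without these 2 genes, a choice made after seeing the data, 2.06% and 1.23%. Outside root the 109 genes held 0.1% of the total in ZSZ1 stem, 0.16% in QYZM stem, 0.2% in ZSZ1 leaf and 0.142% in QYZM leaf. The 100 highest genes of a root library included 7 of the shared genes in ZSZ1 and 3 in QYZM.

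At the other end, Bnt02G002986 had 4.55 FPKM in ZSZ1 root and 5.08 FPKM in QYZM root, against 0.11 FPKM in ZSZ1 leaf and 0.0757 FPKM in QYZM leaf, with listed values of 0 in the stems. Bnt02G003559 had 6.97 FPKM in ZSZ1 root and 3.47 FPKM in QYZM root, and its value was 0 in all leaf and stem libraries. Genes at such levels rest on few fragments, and how many is not known.

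The size of the root excess also varied from gene to gene. On the log2(FPKM + 1) scale, which understates differences of low genes, the median root minus the higher of leaf and stem was 3.28 in ZSZ1 and 2.89 in QYZM, and over all tested genes it was -0.11 in ZSZ1 and -0.17 in QYZM. At least an 8-fold excess was present in 63 of the 109 genes in ZSZ1 and in 47 in QYZM, and at least a 32-fold excess in 11 and 8. Bnt11G017074 had the largest excess by the smaller of its varieties' values. It had 418 FPKM in ZSZ1 root and 277 FPKM in QYZM root, against 0.451 FPKM in ZSZ1 leaf, 0.762 FPKM in ZSZ1 stem, 0.449 FPKM in QYZM leaf and 0.451 FPKM in QYZM stem. All 4 leaf and stem values of this gene lay under 1 FPKM, and its smaller log2 excess was 7.58. Bnt10G015234 followed with a log2 excess of 5.37. It had 40.5 FPKM in ZSZ1 root and 74.6 FPKM in QYZM root, against listed values of 0 in ZSZ1 leaf and stem, 0.271 FPKM in QYZM leaf and 0.299 FPKM in QYZM stem.

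Below 1 FPKM in all 4 leaf and stem libraries were 51 of the 109 genes, with median root levels of 9.29 FPKM in ZSZ1 and 9.08 FPKM in QYZM. They are part of the 217 genes of the whole table that had at least 1 FPKM in both roots and less than 1 FPKM in every other library. Highest by the geometric mean of the root values among the 51 were Bnt11G017074, given above, and Bnt06G009756, which had 76 FPKM in ZSZ1 root and 42.8 FPKM in QYZM root, listed values of 0 in ZSZ1 stem and in both leaves, and 0.872 FPKM in QYZM stem. Listed at 0 in all 4 leaf and stem libraries were 10 genes, led on the same measure by Bnt03G004829 with 36.3 FPKM in ZSZ1 root and 21.7 FPKM in QYZM root. The next, Bnt06G009757, had 27 FPKM in ZSZ1 root and 20.2 FPKM in QYZM root. At the opposite end, 22 genes had at least 1 FPKM in every leaf and stem library, and their median root levels were 175 FPKM in ZSZ1 and 107 FPKM in QYZM. Because the rule is a ratio, a gene well detected in leaf or stem could enter only with a high root level.

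The part of the root level found in stem, which the rule caps within each variety, differed between the varieties in these libraries. Stem FPKM was a median of 1.12% of root FPKM in ZSZ1 (quartiles 0.0979% and 3.34%) and 3.14% in QYZM (quartiles 0.636% and 8.43%). This percentage was lower in ZSZ1 in 72 of the 109 genes (66.1%) and higher in 24, with 13 genes listed at 0 in both stems. Of the 48 shared genes with at least 1 FPKM in a stem library, it was lower in ZSZ1 in 37. Over all tested genes with a root value above 0 in both varieties it was lower in ZSZ1 in 46.6%. All tested genes are not held under the cap, and fewer genes met the rule in QYZM than in ZSZ1. The percentages are therefore a description, and their difference carries no test. The stem FPKM itself was lower in ZSZ1 in 66 of the shared genes and higher in 30. Leaf FPKM was a median of 2.23% of root FPKM in ZSZ1 and 2.47% in QYZM. That percentage was lower in ZSZ1 in 43 of the 109 genes (39.4%) and higher in 47, where 66.5% of all tested genes were lower in ZSZ1. With 1 library against 1 there is no replicate check. The root libraries also differed in the counts of stem genes given above, whose part in it was not tested.

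**Figure D2:**
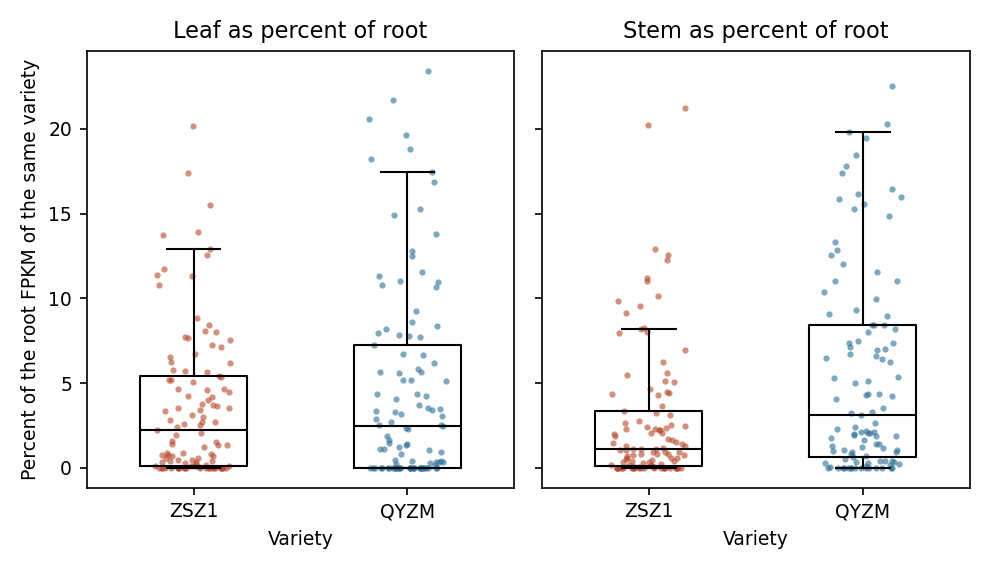
Leaf FPKM (left) and stem FPKM (right) as a percent of the root FPKM of the same variety, for ZSZ1 and QYZM. Points are the 109 genes, boxes give the median and quartiles, and whiskers reach the farthest point within 1.5 times the box height. For stem, the ZSZ1 median is 1.12% and the QYZM median 3.14%.

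Leaf and stem were compared with each other as a contrast that the rule of choice did not set. Of the 109 genes, 6 differed between leaf and stem, 4 of them higher and 2 lower in leaf, and 4 of the 6 had at least 200 FPKM in both roots. Bnt11G017037, whose values are given above, had both leaf values above both stem values, with a log2 difference of 2.03 ± 0.5 (SE; limma adjusted p = 0.0336). Bnt04G005665 had 2.69 FPKM in ZSZ1 leaf and 8.21 FPKM in QYZM leaf, against a listed 0 in ZSZ1 stem and 1.73 FPKM in QYZM stem. Both leaf values lay above both stem values, with a log2 difference of 1.82 ± 0.3 (SE; limma adjusted p = 0.0127). Bnt11G016999 was lower in leaf than in stem in both varieties, by values given above that did not overlap, with a log2 difference of -3.04 ± 0.68 (SE; limma adjusted p = 0.0257). Bnt08G013045 had 17.7 FPKM in ZSZ1 leaf and 16.8 FPKM in QYZM leaf, against 60.8 FPKM in ZSZ1 stem and 33.6 FPKM in QYZM stem, at root levels of 287 FPKM in ZSZ1 and 216 FPKM in QYZM. Its leaf values also lay below both stem values, with a log2 difference of -1.34 ± 0.3 (SE; limma adjusted p = 0.026). The 4 genes were the largest called in each direction with the same sign in both varieties.

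The test was a limma model with tissue and variety terms on log2(FPKM + 1) over the 14941 genes that reached 1 FPKM in 2 or more libraries, a filter that all 109 genes pass by the rule itself. A call needed an adjusted p (Benjamini-Hochberg) under 0.05 and a 2-fold or larger difference. Of all tested genes 29.4% were called, 8.13% higher and 21.3% lower in leaf, and of the shared root-enriched genes 5.5%. The rule holds both leaf and stem of a gene well under its root value. This bounds how far they can lie apart in genes of low root level. Neither the smaller share nor the high root levels among the called genes are therefore read as a property of these genes. The median leaf minus stem difference was 0.00 over the 109 genes and -0.57 over all tested genes. After median-of-ratios scaling, where the median of all tested genes is near 0 by design, limma gave 7 calls, all higher in leaf. In that fit 19.6% of all tested genes were called. There the differences of Bnt11G016999 (-2.39) and Bnt08G013045 (-0.7) were no longer called (limma adjusted p = 0.0998 and 0.0753). Without ZSZ1 leaf or without QYZM leaf no gene of the group was called (11 and 8 had an unadjusted p below 0.05), and limma then called 0 of all tested genes as well. Without ZSZ1 stem 6 were called, 1 higher and 5 lower in leaf, where 9.74% of all tested genes were called. Without QYZM stem 6 were called, 5 higher and 1 lower, with a background of 13.8%. Each of these fits kept 1 of the 6 calls above. Without ZSZ1 root or without QYZM root 13 were called, which included those 6, with a background of 35.7% in both fits.

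**Figure D3:**
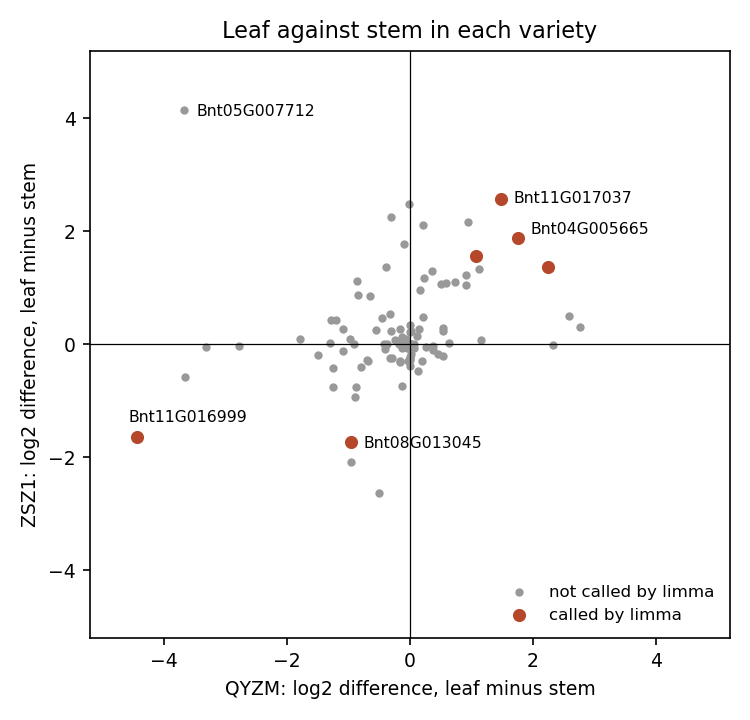
Log2 difference of leaf minus stem, on the log2(FPKM + 1) scale, in ZSZ1 (vertical) and QYZM (horizontal) for each of the 109 genes, with the 6 called by limma in red. Called genes lie in the quadrants where both varieties have the same sign, and Bnt05G007712 lies alone in the far corner of the upper left quadrant.

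Within each variety the balance between leaf and stem differed, again by 1 library against 1. Leaf was at least 2-fold above stem in 20 genes in ZSZ1 and in 9 in QYZM, which compares with 10.1% and 13.3% of all tested genes. Leaf was at least 2-fold below stem in 4 genes in ZSZ1 and in 14 in QYZM, with a background of 37.3% and 21.9%. In both varieties at once 5 genes were at least 2-fold higher in leaf and 1 at least 2-fold lower, with a background of 8.35% and 18.1%. The 51 genes below 1 FPKM in all leaf and stem libraries cannot be 2-fold apart on the FPKM + 1 scale. These 2-fold counts are therefore not read against their backgrounds as a property of the genes. A difference of any size had the same direction in both varieties in 52 genes, 25 of them higher in leaf and 27 lower, where 20% of all tested genes were higher in leaf in both varieties and 63.7% lower. It was higher in leaf in ZSZ1 and lower in QYZM in 26, and the reverse in 11. The remaining 20 genes were equal in leaf and stem of at least 1 variety.

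The cultivar and the wild accession were then compared for the same genes in root. The root levels were correlated across the 109 genes (r = 0.859 on the log2 scale, Spearman 0.802), and over all tested genes r was 0.873. This is a description over genes that share their libraries, and the 109 were chosen for high root values in both. Root levels lay within 2-fold of each other in 77 of the 109 genes. In ZSZ1 root 19 genes were at least 2-fold higher and 13 at least 2-fold lower than in QYZM root, or 17.4% and 11.9% of the group, where all tested genes gave 6.4% higher and 12.9% lower. Median-of-ratios scaling made this 24 higher and 10 lower. At least 4-fold higher in ZSZ1 root were 6 genes and at least 4-fold lower were none, with a background of 1.49% and 2.94%. The median difference was 0.03 over the 109 genes and -0.13 over all tested genes. In a split by the geometric mean of the root values, made after seeing the data, the median was 0.57 among the 36 highest genes. It was 0.03 among the 37 in the middle and -0.13 among the 36 lowest. All tested genes were not split by level, so whether this is particular to the shared genes was not tested.

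Bnt07G011363 showed the widest gap between the roots. It had 225 FPKM in ZSZ1 root and 14 FPKM in QYZM root, a ratio of 16.1, and stood at no more than 0.121 FPKM in any leaf or stem library. Bnt03G004549 had 233 FPKM in ZSZ1 root and 33.3 FPKM in QYZM root, 7-fold higher in ZSZ1. It also had 10.8 FPKM in ZSZ1 leaf and 1.73 FPKM in ZSZ1 stem, against 1.45 FPKM in QYZM leaf and 1.11 FPKM in QYZM stem, so every ZSZ1 value of this gene lay above the QYZM value of the same organ. In the other direction Bnt07G011755 had 7.22 FPKM in ZSZ1 root and 28.2 FPKM in QYZM root, a log2 difference of -1.83. Bnt04G005665 had 20.8 FPKM in ZSZ1 root and 76.2 FPKM in QYZM root, a log2 difference of -1.82. These gaps have no replicate check.

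**Figure D4:**
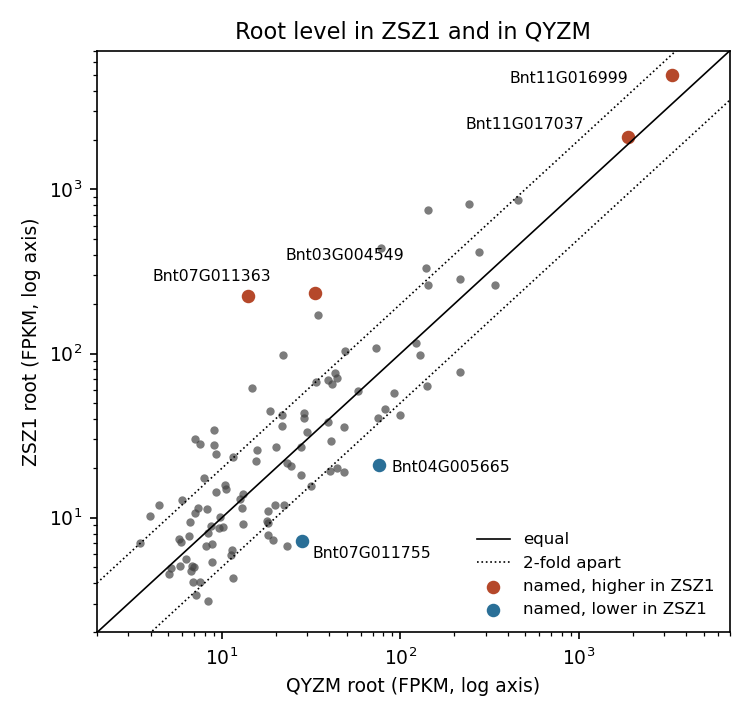
Root FPKM of the 109 genes in ZSZ1 (vertical) and QYZM (horizontal), both on log axes, with the line of equal values and lines at 2-fold. Named genes are the highest in level and the widest gaps in each direction, and 77 genes lie within 2-fold by FPKM + 1.

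Over the 3 organs together, ZSZ1 minus QYZM gave 0 calls among the 109 genes in the same limma fit, where 0.663% of all tested genes were called, 0.0669% higher and 0.596% lower in ZSZ1. At an unadjusted p below 0.05 were 14 of the 109, or 12.8%, where all tested genes gave 15.4%. Of these, 5 were higher and 9 lower in ZSZ1, with a background of 2.31% and 13.1%. The smallest adjusted p in the group was 0.0774, and the median difference was -0.05, against -0.20 over all tested genes. A gene whose signal lies in root alone contributes to this contrast mainly through 1 of 3 organs. With a stem library left out, Bnt03G004549 (log2 difference 2.52) and Bnt05G007712 (3.56) were called higher in ZSZ1, and with a root library left out Bnt07G011944 (1.83). Limma adjusted p-values were 0.0357 to 0.0473. Of all tested genes 0.663% and 0.676% were called in the fits without a stem library, and 1.92% and 1.85% in those without a root library. These 3 genes were named after their values were seen, and with all libraries their limma adjusted p-values were 0.2, 0.682 and 0.115. A fit without a library holds no variety comparison for that organ. The differences of 2.52 and 3.56 therefore rest on root and leaf, and that of 1.83 on leaf and stem. In stem, which its fit left out, Bnt05G007712 ran the other way, at 2.25 FPKM in ZSZ1 and 26.5 FPKM in QYZM.

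The identifiers of the shared genes were not spread singly through the table. Each identifier carries a prefix (1 of 14 numbers or Un) and a running number without gaps from 1 to 20693, and only these numbers were compared, since no genome coordinates were used here. An identifier directly next to that of another shared gene was found for 18 of the 109 genes (16.5%), while 1.03% of all genes in the table had a shared gene directly next to them. These 18 formed 2 runs of 3 and 6 runs of 2. By prefix the shared genes were 0.188% to 0.781% of the genes, and none of the 535 genes with the prefix Un was among them. Of the 195 genes that directly adjoin a shared gene without being one, 10 (5.13%) had at least a 2-fold root excess over both organs in both varieties, against 263 (1.28%) of the 20584 genes outside the group. Genes with adjoining identifiers may be near-identical copies, whose reads the authors' counting could have split, and FPKM values alone do not show this.

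The longest runs were Bnt04G005664 to Bnt04G005666 and Bnt06G009755 to Bnt06G009757. In the first, Bnt04G005664 had 18.9 FPKM in ZSZ1 root and 48.6 FPKM in QYZM root, and Bnt04G005666 had 6.73 FPKM in ZSZ1 root and 8.11 FPKM in QYZM root. The middle gene, Bnt04G005665, is the one given above for its leaf and root values. All 3 were lower in ZSZ1 root than in QYZM root. The second run lay in the densest stretch, where 6 of 11 consecutive identifiers, Bnt06G009755 to Bnt06G009765, were shared root-enriched genes. This stretch was singled out after its values were seen. Its highest gene, Bnt06G009762, had 261 FPKM in ZSZ1 root and 337 FPKM in QYZM root, against 5.04 FPKM in ZSZ1 leaf, 1.04 FPKM in ZSZ1 stem, 8.49 FPKM in QYZM leaf and 3.52 FPKM in QYZM stem. Bnt06G009755, at the start, had 27.7 FPKM in ZSZ1 root and 9.08 FPKM in QYZM root, and Bnt06G009765, at the end, had 11.4 FPKM in ZSZ1 root and 7.37 FPKM in QYZM root.

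The stretch also held genes outside the shared group. Bnt06G009758 was listed at 0 in ZSZ1 leaf and stem and in QYZM leaf, with 10.4 FPKM in ZSZ1 root and 2.09 FPKM in QYZM root, and missed the rule in QYZM. Bnt06G009759 had 85.2 FPKM in ZSZ1 root and 22.2 FPKM in QYZM root but also 47.2 FPKM in ZSZ1 leaf and 11.4 FPKM in QYZM leaf. Bnt06G009761 was listed at 0 in all 3 ZSZ1 libraries, with 7.74 FPKM in QYZM root, 5.92 FPKM in QYZM leaf and 1.65 FPKM in QYZM stem, and Bnt06G009764 was listed at 0 in all 6 libraries.

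**Figure D5:**
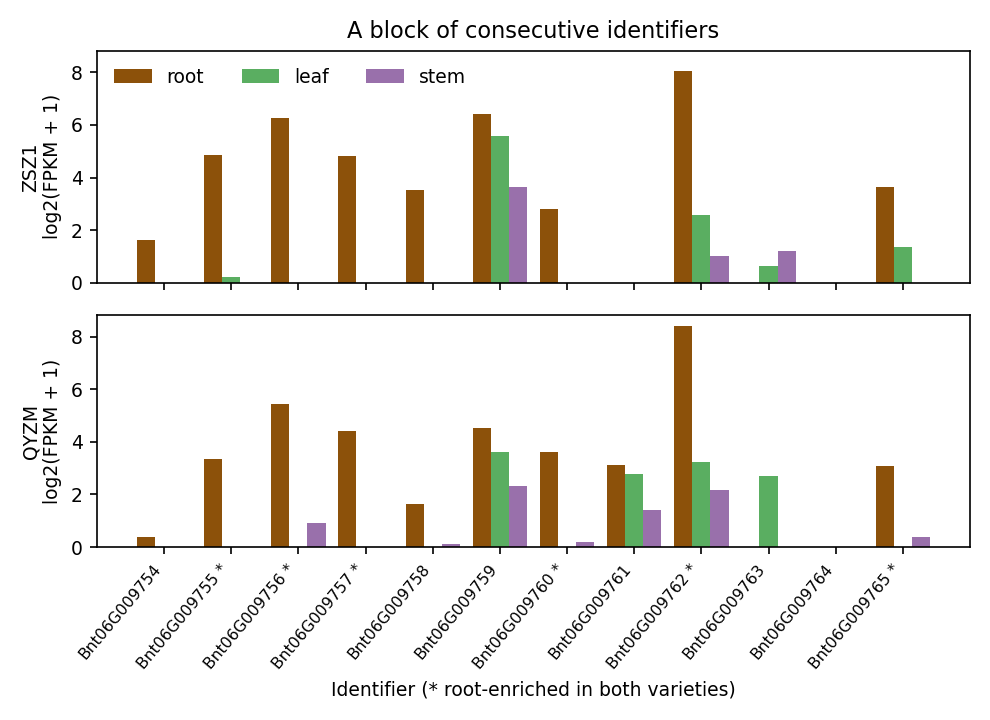
Bars give log2(FPKM + 1) in root, leaf and stem of ZSZ1 (top) and QYZM (bottom) for 12 consecutive identifiers, with the 6 shared root-enriched genes marked by an asterisk. The marked genes are higher in root than in leaf and stem by the rule of choice. Outside root they are at or near 0 except Bnt06G009762 and Bnt06G009765. The unmarked ones include Bnt06G009758, at 10.4 FPKM in ZSZ1 root and 2.09 FPKM in QYZM root, and genes with other patterns or listed at 0.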

How the data were processed

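RNA was sequenced from root, leaf and stem of 30-day-old ZSZ1 and QYZM ramie, 1 library each. The table holds FPKM of 20693 genes as the authors deposited them. Bowtie2 and RSEM are named, per the submitters' processing notes, with neither version nor role. Assembly, gene models, strand handling, filters and read totals were not given in the sources used here. Because FPKM are relative, a rise of abundant genes in a library lowers its other values. Values were used as deposited. Contrasts that the rule did not set were fitted with limma 3.58.1 (R 4.3.3) on log2(FPKM + 1), with tissue and variety terms and a mean-variance trend, over all 14941 genes tested. The error term is the departure from additivity on 2 residual and 3.71 prior degrees of freedom. Tissue-by-variety differences are part of it, and p-values measure only the spread among these libraries, which may be technical. The fit was tested on simulated data with independent noise and no tissue-by-variety differences. That test cannot show how such differences affect the p-values here. Other values were computed with Python 3.11.15, numpy 2.4.6 and pandas 2.3.3, and figures with matplotlib 3.10.9. The group, the lists and the tests were chosen with earlier results of these data known. By rule, at most 2 genes were named in each direction of a comparison, with any further ones named after their values were seen. The rule took the largest differences among called genes of consistent sign, the highest and lowest root levels, the largest root excess, the widest root gaps, the nearest to the threshold and the longest identifier runs. Marker lists could not be used without gene names. Alternatives were other added constants, filters, scalings, fold thresholds, variance settings and leaving out each library.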

Additional observations from a re-analysis of the deposited data

Results flagged for a closer look

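Bnt05G007712 was picked out because leaf and stem ran in opposite directions in the varieties. It had 746 FPKM in ZSZ1 root and 143 FPKM in QYZM root. Leaf and stem had 57 FPKM and 2.25 FPKM in ZSZ1, against 1.14 FPKM and 26.5 FPKM in QYZM. Its leaf minus stem log2 difference was 4.16 in ZSZ1 and -3.68 in QYZM, 7.84 apart. The difference was not tested, since each organ of each variety had 1 library. No other of the 109 genes was at least 2-fold apart in opposite directions.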

How the results depend on the processing

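The rule gave 207 genes with an added constant of 0.1, 38 with 5, 166 with each library at a total of 1000000, 372 at 2-fold and 36 at 8-fold. Median-of-ratios scaling gave 83, all among the 109, and quantile normalization 100, of which 95 were. Leaf minus stem calls among the 109 numbered 15 and 3 with constants of 0.1 and 5 (29.1% and 18.7% of all tested genes were called), 10 with a total of 1000000 (30%), 3 without the blocking term (20.8%), 2 at 4-fold (10.3%) and 0 to 13 with 1 library left out (0% to 35.7%). The differences of the named genes kept their sign, at 1.35 to 2.71 for Bnt11G017037, 0.8 to 3.49 for Bnt04G005665, -4.11 to -1.97 for Bnt11G016999 and -1.64 to -0.7 for Bnt08G013045, and lost their calls under 4, 5, 5 and 6 of 11 alternatives. For ZSZ1 minus QYZM, calls were 0 to 2 with 1 library left out (0% to 1.92% of all tested genes) and 0 otherwise (0% to 0.863%). Root pairs at least 4-fold apart were 6. The median root difference was 0.15 under median-of-ratios scaling and 0.18 under quantile normalization, against -0.03 and 0.01 over all tested genes. The 2-fold counts in root moved to 24 higher and 10 lower, and 24 and 11, under those scalings. Within 10 identifier numbers of another shared gene lay 30 genes, with a background of 8.91% of all genes. Genes higher in leaf than in stem in both varieties were 25 at any difference and 0 at 4-fold, with a background of 20% and 3.31% of all tested genes. Scalings of the stem percentage, added after seeing the data, left it lower in ZSZ1 in 68 to 74 genes. Where no library or gene was removed the cause was not tested. The fits already compare leaf with stem within a variety and the varieties within an organ, and the labels carry no replicate numbers that could pair libraries further. Depth limits the genes of few FPKM most, since fragment numbers are not known.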
